A study of Homo sapiens with 2 samples.

Results

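Expression of 36 ribosome biogenesis genes was compared between mock-treated and DAC-treated HCT116 cells, a human colon cancer cell line, by single-cell RNA-sequencing (scRNA-seq). The 36 genes were chosen by name as nucleolar factors that transcribe, process, modify, or assemble ribosomal RNA, and all of them were present in both count tables among 33538 listed genes. They comprised 2 subunits of RNA polymerase I, 3 proteins of box C/D and 4 proteins of box H/ACA small nucleolar ribonucleoproteins (snoRNPs), 9 factors of the small subunit, 12 factors of the large subunit, and 6 proteins that organise the nucleolus. Decitabine (DAC) is a nucleoside drug that, once built into replicating DNA, depletes DNA methyltransferases and thereby removes methylation in dividing cells. Exposure to 0.5 μM DAC spanned days 1 to 5 of culture, with a repeat dose on day 3, and sampling on day 7 followed a drug-free interval. The mock-treated cells were the matching control, and 1 library was sequenced from each condition. Both conditions used the same established line, and the labels name no genetic change and no separate cultures.

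Ribosomes are built in the nucleolus, where RNA polymerase I transcribes a long precursor that contains most of the ribosomal RNA. Box C/D and box H/ACA snoRNPs modify the precursor by methylation and pseudouridylation, and assembly factors fold it, cleave it, and load ribosomal proteins onto 2 separate subunits. The pathway is a main consumer of RNA and protein synthesis in growing cells, its genes are well-known targets of the transcription factor MYC, and cancer cell lines generally express it strongly.

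The mock-treated library had 49911689 unique molecular identifiers (UMIs, counts of captured transcript molecules) in 1783 cells, against 59046165 in 1751 DAC-treated cells. The median cell had 27899 and 35340 UMIs, respectively, of which 17.9% and 18.3% were mitochondrial at the median. The libraries shared 12 cell barcodes. All 5 epithelial markers examined were present, with KRT8, KRT18, and KRT19 each in 91.1% or more of the cells of either library, EPCAM in 85.7% of mock-treated and 77.1% of DAC-treated cells, and CDH1 in 38.0% and 31.8%. Of 5 markers of other cells, PTPRC had 0 and 16 UMIs, PECAM1 0 and 46, HBB 0 and 5, and COL3A1 5 in each library. COL1A1, a fibroblast collagen and the fifth of them, was measured at 533 and 1112 UMIs, and the part of these markers in any result was not tested. Since there was 1 library per condition, no difference between conditions could be checked against the spread between replicates, and all intervals given are 95% exact intervals that cover counting error only. DAC treatment and the library itself cannot be told apart.

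For each gene, UMIs were summed over all cells of a library and scaled to counts per 1000000 UMIs of that library (CPM), so a ratio compares shares of the library and not molecules per cell. Of the 36 genes, 28 had a higher share in the DAC-treated library and 8 a lower one, and the median log2 ratio of DAC-treated to mock-treated was 0.31. Of the 12170 genes with 200 or more UMIs over both libraries, 62.9% were higher and 4515 genes were lower, and their median log2 ratio was 0.22. The median ribosome biogenesis gene thus lay 0.09 above the median gene on the log2 scale, a distance that was 0.18 in cells with 20% or less mitochondrial UMIs and 0.05 in cells thinned to 1000 UMIs, where 19 of the 36 genes passed the filter. All 36 passed the filter of 200 UMIs. With median-of-ratios scaling, which sets the median gene close to 0, the split became 24 higher and 12 lower, when 50.4% of all genes were higher, and the median log2 ratio of the 36 genes was 0.10. When scaled without mitochondrial and ribosomal protein genes, the median was 0.17 for the 36 genes and 0.08 for all genes.

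A change of 1.5-fold or more was used as a fixed limit of size in place of a test. In the DAC-treated library, 9 of the 36 genes were higher by 1.5-fold or more, when 29.0% of all genes tested were, and 1 gene was lower by as much, when 13.7% of all genes were. The count of higher genes was thus near that of the transcriptome, and the count of lower genes was below it. Relative to the median gene, 5 were higher and 2 were lower by 1.5-fold or more, against 19.4% and 20.7% of all genes. The 36 genes together held 0.520% of all UMIs in the mock-treated library (0.518% to 0.522%) and 0.625% in the DAC-treated library (0.623% to 0.627%), a ratio of 1.20. NPM1 and NCL made up 40.5% of that sum in the mock-treated library and 40.6% in the DAC-treated library. The other 34 genes summed to 0.309% of UMIs in mock-treated and 0.371% in DAC-treated cells.

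**Figure D1:**
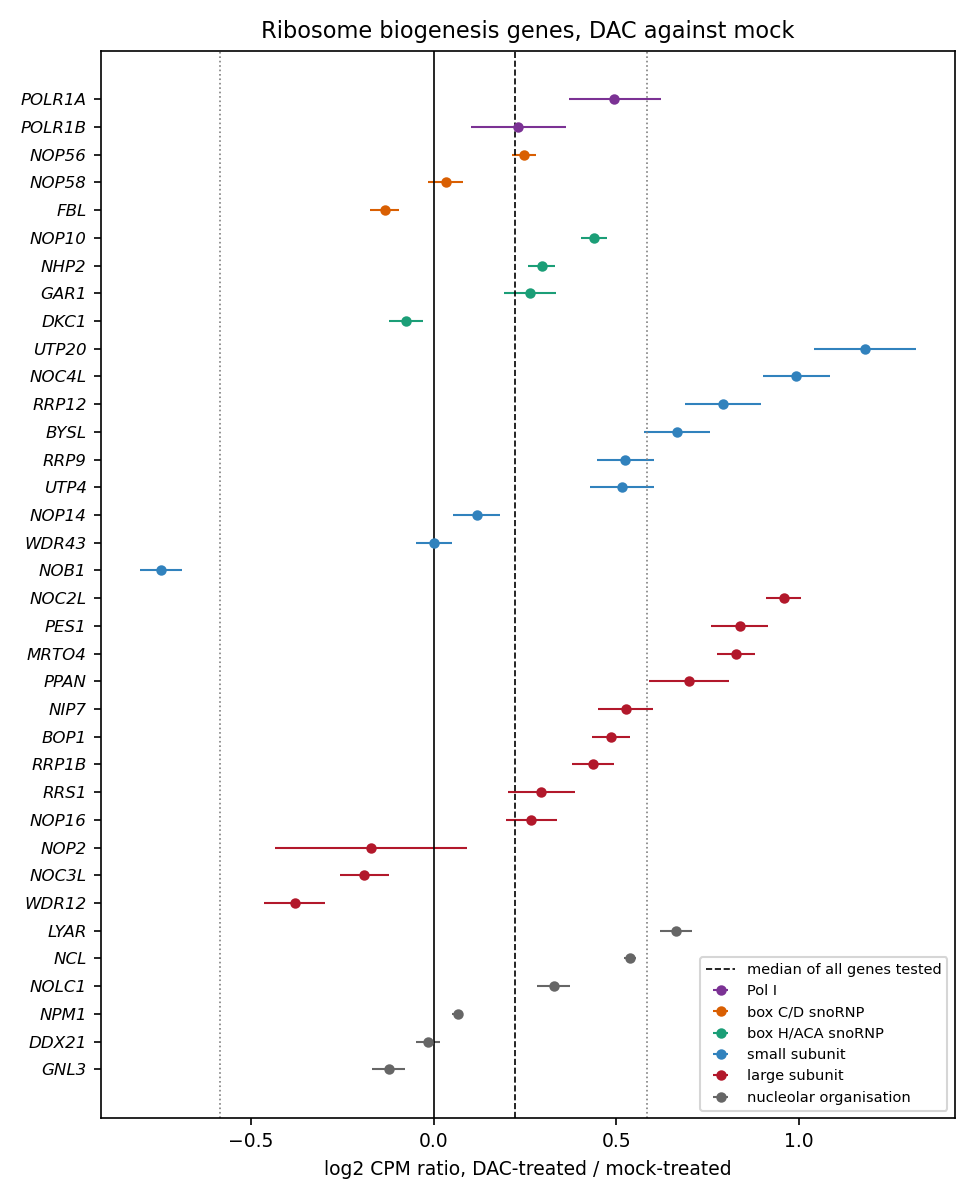
Log2 CPM ratio of DAC-treated to mock-treated HCT116 cells for the 36 ribosome biogenesis genes, grouped and colored by role, with 95% intervals for counting error (1 library per condition). The dashed line is the median of all genes tested (0.22) and the dotted lines mark 1.5-fold. UTP20 (1.18) was highest and NOB1 (-0.75) lowest, and 28 points lie above 0, or 24 with median-of-ratios scaling.

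Both subunits of RNA polymerase I were higher in the DAC-treated library. POLR1A, the largest and catalytic subunit, had 827 UMIs (16.6 CPM) in mock-treated cells and 1379 UMIs (23.4 CPM) in DAC-treated cells, a log2 ratio of 0.50 (0.37 to 0.62). POLR1B, the other large subunit of the catalytic core, had 845 UMIs (16.9 CPM) and 1174 UMIs (19.9 CPM), a log2 ratio of 0.23 (0.10 to 0.36). Both intervals lay above 0, but that of POLR1B contained the median of all genes.

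The core proteins of the box C/D snoRNPs, which guide the methylation of ribosomal RNA, had the lowest median log2 ratio of the 6 roles, at 0.03, or -0.19 relative to the median gene. FBL (fibrillarin), the methyltransferase, had 9994 UMIs (200.2 CPM) in mock-treated cells and 10774 UMIs (182 CPM) in DAC-treated cells, a log2 ratio of -0.13 (-0.17 to -0.09). NOP58, a scaffold protein of the particle, had 6296 UMIs (126 CPM) and 7621 UMIs (129 CPM), a log2 ratio of 0.03 (-0.02 to 0.08). NOP56, its partner in the scaffold, was higher, with 12964 UMIs (260 CPM) and 18215 UMIs (308 CPM) and a log2 ratio of 0.25 (0.22 to 0.28). The direction of FBL and NOP58 was not the same in every alternative processing: the log2 ratio of FBL ranged from -0.47 to 0.11 and that of NOP58 from -0.21 to 0.17.

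The 4 box H/ACA proteins, which carry out pseudouridylation, were split between the enzyme and its small partners. DKC1 (dyskerin), the pseudouridine synthase, had 7240 UMIs (145 CPM) and 8126 UMIs (138 CPM), a log2 ratio of -0.08 (-0.12 to -0.03), with a range from -0.29 to 0.13 over the alternatives. NOP10 had 10128 UMIs (203 CPM) and 16233 UMIs (275 CPM), a log2 ratio of 0.44 (0.40 to 0.47). NHP2 and GAR1 had log2 ratios of 0.30 and 0.26. NOP10, NHP2, and GAR1 were higher in the DAC-treated library in every alternative that gave them a value, whereas DKC1 changed sign between alternatives.

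Factors of the small subunit gave both the highest and the lowest ratio of the 36 genes. UTP20 (chr12:101280105-101386618 on hg38, plus strand), a large scaffold protein of the small subunit processome, had 580 UMIs (11.6 CPM) in mock-treated cells and 1555 UMIs (26.3 CPM) in DAC-treated cells, a log2 ratio of 1.18 (1.04 to 1.32). NOC4L, which acts with NOP14 in maturation of the small subunit, had 1360 UMIs (27.2 CPM) and 3202 UMIs (54.2 CPM), a log2 ratio of 0.99 (0.90 to 1.09). RRP12, an export and maturation factor, had 1107 UMIs (22.2 CPM) and 2268 UMIs (38.4 CPM), a log2 ratio of 0.79 (0.69 to 0.90). These 3 genes were higher by 1.5-fold or more, as was BYSL (bystin), a late assembly factor with 1539 UMIs and 2888 UMIs and a log2 ratio of 0.67 (0.58 to 0.76). With median-of-ratios scaling, RRP12 (0.58) fell just below 1.5-fold and BYSL (0.45) fell further below it. RRP9, a U3 snoRNP protein, and UTP4, an early component of the processome, had log2 ratios of 0.52 each, which by the mean of per-cell CPM were 0.61 and 0.70 and past 1.5-fold. NOP14 had a log2 ratio of 0.12, with a range from -0.10 with median-of-ratios scaling to 0.71 (0.31 to 1.11) in cells thinned to 1000 UMIs, where it passed 1.5-fold on 89 and 136 UMIs. WDR43, an early processome factor, had a log2 ratio of 0.00, with a range from -0.21 to 0.05 over the alternatives.

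NOB1 (chr16:69741871-69754926 on hg38, minus strand), the endonuclease that makes the final cut of the small subunit RNA, went the other way. It had 5989 UMIs (120 CPM) in mock-treated cells and 4223 UMIs (71.5 CPM) in DAC-treated cells, a log2 ratio of -0.75 (-0.80 to -0.69). The intervals of its UMI sums, 5838 to 6143 and 4097 to 4352, did not overlap, although the DAC-treated library was the deeper one. NOB1 was lower in all 9 alternatives, with log2 ratios from -0.99 to -0.54, and in cells with 20% or less mitochondrial UMIs it no longer reached 1.5-fold. With a median log2 ratio of 0.52, the 9 small subunit factors comprised 8 higher genes and NOB1, when 62.9% of all genes were higher.

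Large subunit factors had a median log2 ratio of 0.46, with 9 of 12 genes higher in DAC-treated cells, when 62.9% of all genes were. NOC2L, which acts in export of the pre-ribosome and also binds histones, had 5029 UMIs (101 CPM) and 11559 UMIs (196 CPM), a log2 ratio of 0.96 (0.91 to 1.01). MRTO4, a factor that holds the place of a stalk protein, had 4418 UMIs (88.5 CPM) and 9276 UMIs (157 CPM), a log2 ratio of 0.83 (0.78 to 0.88). Both stayed past 1.5-fold in every alternative that gave them a value. PPAN, a factor of early assembly, had 1034 UMIs (20.7 CPM) and 1986 UMIs (33.6 CPM), a log2 ratio of 0.70 (0.59 to 0.81), or 0.48 and below 1.5-fold with median-of-ratios scaling. PPAN shares exons with the readthrough gene PPAN-P2RY11 and with P2RY11 on the same strand, for which 0 and 418 UMIs were counted in mock-treated cells and 0 and 434 in DAC-treated cells, so its count is uncertain. NIP7 (0.53), RRP1B (0.44), RRS1 (0.29), and NOP16 (0.27) were higher by less than 1.5-fold on the log2 ratios given, but by the mean of per-cell CPM NIP7 (0.70) and RRS1 (0.75) were past it.

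The PeBoW complex, formed by PES1, BOP1, and WDR12, did not shift by 1 common ratio. PES1 had 1979 UMIs (39.7 CPM) in mock-treated cells and 4185 UMIs (70.9 CPM) in DAC-treated cells, a log2 ratio of 0.84 (0.76 to 0.92). BOP1 had 4634 UMIs (92.8 CPM) and 7678 UMIs (130 CPM), a log2 ratio of 0.49 (0.43 to 0.54), which passed 1.5-fold by the mean of per-cell CPM (0.59) and in cells thinned to 1000 UMIs (0.81). WDR12 had 2414 UMIs (48.4 CPM) and 2194 UMIs (37.2 CPM), a log2 ratio of -0.38 (-0.46 to -0.30). The 3 intervals did not overlap one another, and WDR12 was lower in all 8 alternatives that gave it a value, from -0.60, which is past 1.5-fold, to -0.17. NOC3L, the binding partner of NOC2L, likewise differed from its partner, with a log2 ratio of -0.19 (-0.26 to -0.12) that turned to 0.03 for the mean of per-cell CPM. NOP2, an RNA methyltransferase, had only 237 and 249 UMIs and a log2 ratio of -0.17 whose interval from -0.43 to 0.09 spanned 0. It shares an exon on the same strand with AC006064.6, for which 0 and 1 UMI were counted, so the low count of NOP2 is uncertain.

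Among proteins that organise the nucleolus, NCL (nucleolin) was higher and NPM1 (nucleophosmin) close to even. NCL, an RNA-binding protein of the inner nucleolus, had 40635 UMIs (814 CPM) in mock-treated cells and 69776 UMIs (1182 CPM) in DAC-treated cells, a log2 ratio of 0.54 (0.52 to 0.56). NPM1, the main protein of the outer granular region, had 64458 UMIs (1291 CPM) and 79827 UMIs (1352 CPM), a log2 ratio of 0.07 (0.05 to 0.08), with a range from -0.19 to 0.29 over the alternatives. LYAR, a nucleolar zinc finger protein, had 6691 UMIs (134 CPM) and 12540 UMIs (212 CPM), a log2 ratio of 0.66 (0.62 to 0.71). LYAR was the member just past the 1.5-fold limit, and NCL was the next below it. LYAR fell below the limit with median-of-ratios scaling (0.45), and NCL passed it at 0.72 in cells with 20% or less mitochondrial UMIs. NOLC1, a snoRNP chaperone, had a log2 ratio of 0.33. GNL3 (nucleostemin) and the helicase DDX21 had -0.12 and -0.02, with ranges from -0.34 to 0.06 and from -0.23 to 0.15 over the alternatives.

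Across all 36 genes, counting intervals of the log2 ratio lay above 0 for 26, when they did for 54.6% of all genes tested, below 0 for 6, when they did for 29.5%, and across 0 for 4. In the alternatives tried, 24 genes were higher in the DAC-treated library whenever they gave a value, when 49.3% of all genes were, NOB1 and WDR12 were lower, when 28.3% were, and 10 had both signs. Besides FBL, NOP58, and DKC1, these were WDR43, NOP14, NOP2, NOC3L, NPM1, GNL3, and DDX21. Of the 9 genes higher by 1.5-fold or more, 5 stayed past the limit in every alternative that gave them a value (UTP20, NOC4L, PES1, NOC2L, and MRTO4), when 18.9% of all genes did. Of the 36 genes, 7 carry small nucleolar RNAs in their introns or exons, 25 in all, in GENCODE release 44 (NOP56, NOP58, DKC1, WDR43, PPAN, NCL, and GNL3). Their median log2 ratio was 0.03, and that of the other 29 genes was 0.44, as a description without a test.

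Other genes of the pathway, 122 of which passed the filter, had a similar median log2 ratio of 0.26. Of these, 92 were higher in the DAC-treated library and 30 lower, when 62.9% of all genes tested were higher. By 1.5-fold or more, 36 were higher and 5 lower, against 29.0% and 13.7% of all genes, so that the share of higher genes was near that of all genes. By role, the median was 0.11 for further RNA polymerase I genes, 0.32 for small subunit factors, 0.23 for large subunit factors, and 0.29 for the exosome, which trims the precursor. The highest among those with 1000 or more UMIs were NOL6 (1.49) and DHX37 (1.20), both of the small subunit processome, then REXO4 (1.12) and FTSJ3 (1.10). The lowest were NOP53 (-1.22) and RSL24D1 (-1.10), both late large subunit factors, then TAF1D (-1.01), of the RNA polymerase I promoter complex, and EXOSC8 (-0.99), of the exosome.

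Ribosomal protein genes, whose products are assembled by these factors, were mostly lower. Of 79 genes, 75 were lower in the DAC-treated library, 44 by 1.5-fold or more, against 13.7% of all genes, with a median log2 ratio of -0.62. Their summed share was 23.9% of UMIs in mock-treated and 15.5% in DAC-treated cells. Lists of S-phase and G2/M genes had medians of 1.00 and 0.86, both above that of the ribosome biogenesis genes. Relative to the median gene, the medians of the biogenesis factors and the ribosomal proteins were 0.09 and -0.84.

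**Figure D2:**
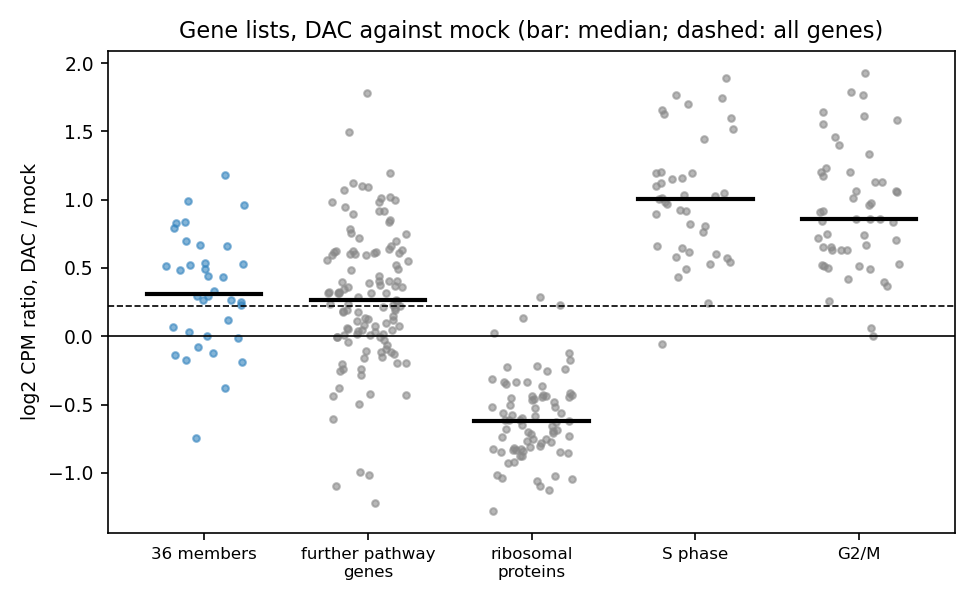
Log2 CPM ratio of DAC-treated to mock-treated cells for each gene (point) of 5 lists, with list medians as bars (1 library per condition). The 36 ribosome biogenesis genes (median 0.31) and the further genes of the pathway (0.26) lie around the dashed median of all genes (0.22), ribosomal protein genes (-0.62) lie below it, and S-phase (1.00) and G2/M (0.86) genes lie above it.

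Among regulators of the pathway, MYC, the transcription factor known to drive many of these genes, had 8340 UMIs (167 CPM) in mock-treated cells and 4447 UMIs (75.3 CPM) in DAC-treated cells, a log2 ratio of -1.15. UBTF, the activator of RNA polymerase I, had a log2 ratio of 0.64 and TTF1, its terminator, of 1.01. MAX, the partner of MYC, had 0.13. RRN3, an initiation factor of RNA polymerase I, had -0.10 with an interval from -0.22 to 0.01.

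To compare single cells, 1294 mock-treated and 1112 DAC-treated cells with 8000 or more non-mitochondrial UMIs and 50% or less mitochondrial UMIs were each thinned to 8000 non-mitochondrial UMIs. The median cell then held 50 UMIs of the 36 genes in the mock-treated library (quartiles 42 and 59) and 61 in the DAC-treated library (47 and 76). The number of the 36 genes detected was 18 in the median mock-treated cell and 21 in the median DAC-treated cell. Without thinning, the share of non-mitochondrial UMIs was 0.631% in the median mock-treated cell and 0.772% in the median DAC-treated cell, and the ranges between the 10th and 90th percentiles, 0.455% to 0.823% and 0.491% to 1.13%, overlapped widely. Ribosomal protein genes held a mean of 2452 of the 8000 UMIs in mock-treated and 1606 in DAC-treated cells. More of the 8000 UMIs were thus left to all other genes in DAC-treated cells, and the part of this in the values above was not tested.

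NPM1 had the same median of 13 UMIs per thinned cell in both libraries, but a wider spread after DAC. Its 10th and 90th percentiles were 7 and 19 UMIs in mock-treated cells and 5 and 24 UMIs in DAC-treated cells. NCL had a median of 7 UMIs in mock-treated cells (3 and 14) and of 10 in DAC-treated cells (3 and 23), so that the upper end moved and the lower end did not. The squared coefficient of variation beyond Poisson sampling was 0.0554 for NPM1 in mock-treated and 0.203 in DAC-treated cells, and 0.165 and 0.421 for NCL.

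A wider spread after DAC was also seen over all genes. For 35 ribosome biogenesis genes, the median excess squared coefficient of variation was 0.166 in mock-treated and 0.207 in DAC-treated cells, while for all 9034 genes that averaged at least 0.05 UMI in each library it was 0.145 and 0.288. DAC-treated cells had the larger value for 22 of the 35 genes, and for 69.1% of all genes. NOP2 averaged less than 0.05 UMI and was left out here. NPM1 correlated with the mitochondrial share over 1112 DAC-treated cells at a Spearman's rho of -0.40 and over 1294 mock-treated cells at -0.02, while NCL had -0.30 and -0.32. The part of mitochondrial content in the spread was not tested.

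**Figure D3:**
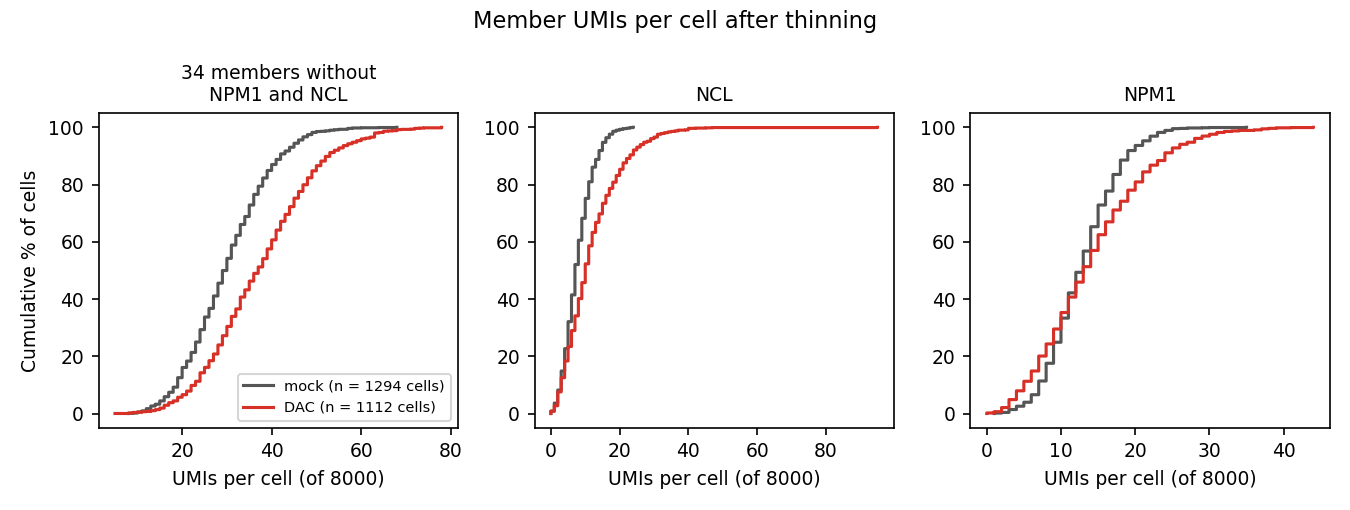
Cumulative percent of cells by the UMIs of 34 genes (all but NPM1 and NCL), of NCL, and of NPM1 per cell thinned to 8000 non-mitochondrial UMIs, in 1294 mock-treated and 1112 DAC-treated cells of 1 library each. For the 34 genes the DAC-treated curve is shifted to the right over most of its range (medians 29.5 and 37), while the NPM1 curves cross near their shared median of 13.

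The relation to S phase was examined by ranking the thinned cells of each library by the summed UMIs of PCNA, the sliding clamp of DNA replication, and MCM5, a subunit of the replicative helicase. PCNA and MCM5 were themselves higher in DAC-treated cells, with log2 ratios of 1.60 and 1.05. After thinning, 54.7% of mock-treated but 17.5% of DAC-treated cells had no UMI of either. The 431 mock-treated and 370 DAC-treated cells at each end of the ranking are called PCNA/MCM5-high and PCNA/MCM5-low. Cells with equal sums were ordered by the UMIs of the other S-phase genes, which decided the low group of mock-treated cells, since all 431 had 0 UMIs of PCNA and MCM5. The high group of mock-treated cells had 1 UMI or more, with a mean of 2.22. In DAC-treated cells the low group had 0 or 1 UMI and the high group 3 or more, with a mean of 5.35. A cell with 1 UMI could thus be PCNA/MCM5-high among mock-treated and PCNA/MCM5-low among DAC-treated cells. The groups are therefore not alike between the libraries. The ranking is a range of a score and not a measured cell cycle phase.

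The summed level of the 36 genes was slightly higher in PCNA/MCM5-high cells of both libraries. It was 1.11 times that of PCNA/MCM5-low cells in the mock-treated library (1.09 to 1.13) and 1.19 times in the DAC-treated library (1.17 to 1.22), while the median over all 9034 genes was 1.06 and 0.927 and that over the 963 genes averaging at least 1 UMI was 1.03 and 1.02. NPM1 and NCL weighed on this sum, and without them the ratio was 1.17 (1.14 to 1.20) in the mock-treated and 1.12 (1.10 to 1.15) in the DAC-treated library, which turned the order of the libraries. In cells with 20% or less mitochondrial UMIs, the ratio for the 36 genes was 1.12 (1.10 to 1.15) in the mock-treated and 1.08 (1.05 to 1.10) in the DAC-treated library, and the order of the libraries turned here too. A level higher by 25% or more was reached by 10 of 35 genes in mock-treated cells, when 24.0% of all genes reached it, and by 11 of 35 in DAC-treated cells, when 14.7% did. Of the 13 genes that averaged at least 1 UMI in each library, where counting error is smaller, 5 and 6 reached it, against 13.3% and 16.1% of all such genes. Of the 6 in DAC-treated cells, NPM1 (1.11), NCL (1.08), NOP56 (1.20), and NOLC1 (1.24) fell below 25% in cells with 20% or less mitochondrial UMIs. FBL (1.28) and NOP58 (1.32) stayed above it.

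In both libraries, 6 of 35 genes reached 25%, when 9.19% of all genes did: the box C/D proteins NOP56 and NOP58, the snoRNP chaperone NOLC1, the large subunit factors MRTO4 and BOP1, and UTP4 of the small subunit. The level of NOLC1 in PCNA/MCM5-high cells was 1.505 times that in PCNA/MCM5-low cells in the mock-treated library (1.33 to 1.70) and 1.45 times in the DAC-treated library (1.29 to 1.63). The ratio of NOP58 was 1.38 (1.22 to 1.57) and 1.55 (1.35 to 1.77), that of NOP56 was 1.39 and 1.26, and that of FBL was 1.23 and 1.44. MRTO4 and DKC1 had ratios of 1.42 each in mock-treated cells and of 1.37 and 1.23 in DAC-treated cells. UTP4, with few UMIs, had 1.42 (1.10 to 1.83) and 1.31 (1.03 to 1.66). In DAC-treated cells with 20% or less mitochondrial UMIs the ratios were lower, at 1.24 for NOLC1, 1.32 for NOP58, 1.20 for NOP56, and 1.28 for FBL. Those of MRTO4 (0.924 to 1.23) and DKC1 (0.895 to 1.21) had intervals across 1. NOLC1, NOP56, and MRTO4 thus no longer reached 25% there, while NOP58 did.

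Ratios lay below 1 for 7 of 35 genes in mock-treated cells, when they did for 38.9% of all genes, and for 8 of 35 in DAC-treated cells, when they did for 60.1%. RRP12, WDR12, NOP16, and NOP10 were below 1 in both libraries. RRP12 had 0.752 (0.555 to 1.02) in mock-treated and 0.848 (0.662 to 1.09) in DAC-treated cells, and WDR12 had 0.852 and 0.869, also with intervals across 1. The whole interval lay below 1 for NOB1 (0.757 to 0.969) and NPM1 in mock-treated cells and for NOP10 in DAC-treated cells. NOP10 had a ratio of 0.978 (0.891 to 1.07) in mock-treated and of 0.801 (0.734 to 0.874) in DAC-treated cells. Over all cells its share was higher after DAC, while within the DAC-treated library it was lower in PCNA/MCM5-high cells. NPM1 had opposite directions in the libraries, with 0.943 (0.908 to 0.979) in mock-treated cells and 1.35 (1.30 to 1.40) in DAC-treated cells, or 1.11 (1.06 to 1.16) in DAC-treated cells with 20% or less mitochondrial UMIs. NCL was higher in PCNA/MCM5-high cells of both, with ratios of 1.19 and 1.26. In DAC-treated cells its ratio was 1.08 (1.03 to 1.14) with 20% or less mitochondrial UMIs and 1.65 (1.58 to 1.72) by the S-phase list. MYC had ratios of 1.30 and 0.696. The summed ribosomal protein genes had 0.898 and 1.01.

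**Figure D4:**
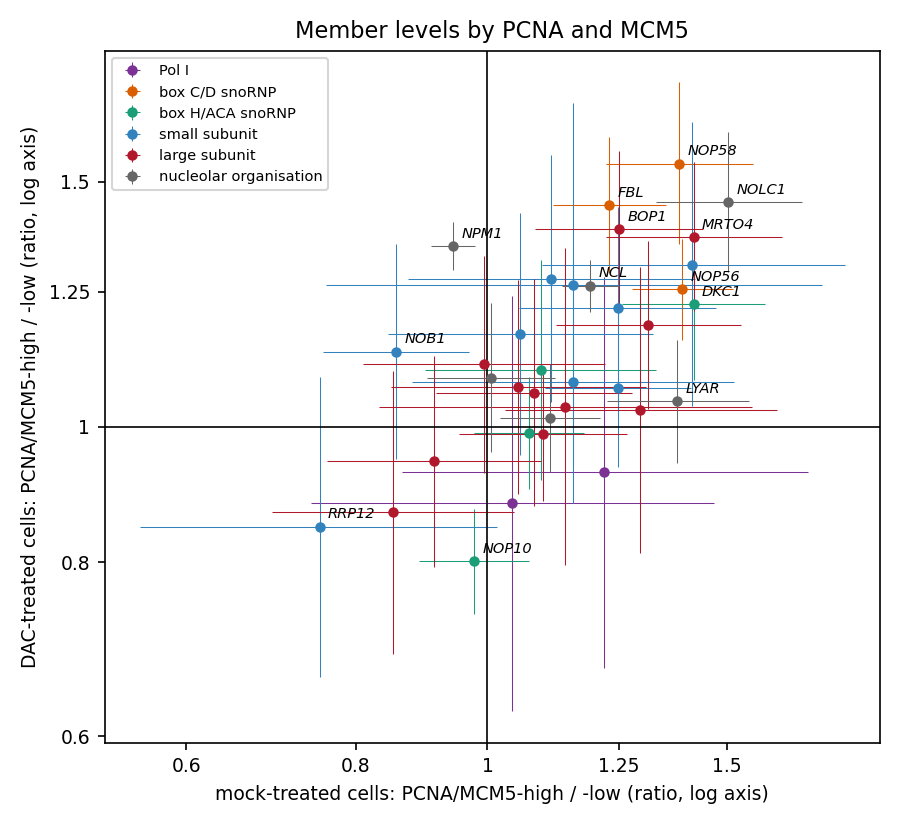
Ratio of the mean UMIs in PCNA/MCM5-high to PCNA/MCM5-low cells in the mock-treated library (x axis, 431 cells in each group) and in the DAC-treated library (y axis, 370 cells in each group) for 35 ribosome biogenesis genes, on log axes, with 95% intervals for counting error. NOLC1, NOP58, NOP56, FBL, and MRTO4 lie to the upper right, NPM1 lies above 1 in DAC-treated cells alone (1.35 against 0.943), and NOP10 lies below 1 in DAC-treated cells (0.801).

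The compared cells also differed in other respects. In the mock-treated library, PCNA/MCM5-low and PCNA/MCM5-high cells had median totals of 30229 and 38494 UMIs before thinning, and in the DAC-treated library 49894 and 44070. The median mitochondrial share was 17.8% and 16.6% in mock-treated cells and 20.6% and 16.5% in DAC-treated cells. G2/M genes had means of 8.39 and 39.0 UMIs per mock-treated cell and of 35.1 and 74.0 per DAC-treated cell. The part of depth, mitochondrial content, and G2/M in the ratios of the 36 genes was not tested.

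Correlations of single genes over single cells were weak. The median Spearman's rho between 35 of the genes (all but NOP2) and the summed PCNA and MCM5 UMIs was 0.02 over 1294 mock-treated cells and 0.03 over 1112 DAC-treated cells, against 0.01 and -0.01 for all genes. The highest values were 0.12 for NOP56 in mock-treated cells and 0.22 for NPM1 in DAC-treated cells, and rho reached 0.1 for 1 of 35 genes in mock-treated cells, when it did for 5.62% of all genes, and for 7 of 35 in DAC-treated cells, when it did for 6.58%. Of the 13 genes that averaged at least 1 UMI, 1 and 6 reached it, against 10.8% and 20.8% of all such genes. The sum of the 35 genes had larger values, with a rho of 0.09 in mock-treated and 0.19 in DAC-treated cells. Without NPM1 and NCL these were 0.14 and 0.12. Against the UMIs of the S-phase list, the sum of the 36 genes had 0.23 and 0.33, or 0.27 and 0.20 without NPM1 and NCL. Against the G2/M list, the 36 genes had 0.21 and 0.27. All cells of a library share its preparation, and in counts this sparse such weak values are descriptions and no finding. Between the 595 pairs of these 35 genes the median rho was 0.04 in mock-treated and 0.06 in DAC-treated cells. For the 78 pairs of the 13 genes that averaged at least 1 UMI it was 0.08 and 0.10, and for all 463203 pairs of the 963 genes at that level it was 0.00 and 0.01. Ranked by the lower of the values in the libraries, NOP14 and NCL came first, at 0.23 in each, followed by NOP56 and NCL (0.18 and 0.20) and by NCL and NOLC1 (0.17 and 0.22).

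The comparison of conditions was repeated in cells without PCNA and MCM5. Among 708 mock-treated and 195 DAC-treated thinned cells with no UMI of either gene, 32 of the 36 genes kept 200 or more UMIs. Their median log2 ratio was 0.34, against 0.25 for all genes tested there, with 25 higher, when 65.7% of all genes were. By 1.5-fold or more, 8 were higher and 1 lower, against 29.2% and 11.6% of all genes. NPM1 was lower in these cells, with a log2 ratio of -0.19 (-0.26 to -0.13) in place of 0.07, NOP58 had -0.21 (-0.45 to 0.02) in place of 0.03, and FBL had -0.47 (-0.67 to -0.28) in place of -0.13.

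Promoter sequences were examined because the genes share a pathway. The RefSeq promoter table (GRCh38.p14), which gives 250 bases before to 50 after each gene start, held windows for 30 of the 36 genes, and NOP58, RRP12, BOP1, RRP1B, RRS1, and NOLC1 had no entry. The letters CACGTG, the canonical E-box and the same on both strands, occurred in 16 of the 30 genes (53.3%), in 12.9% of 9384 genes with a window that passed the UMI filter, and in 8.77% of all 27305 genes. They occurred in 26.2% of the further pathway genes and in 6.35% of the ribosomal protein genes. Of the 17 copies in the 30 genes, 15 lay within 50 bases of the gene start in the RefSeq table, compared with 38.8% of the copies in all genes that passed the filter. The start in GENCODE can lie elsewhere, and for PES1 and GNL3 it was kilobases away from the E-box. Sequences are shown for the genes past 1.5-fold that hold an E-box and, for contrast, for 2 genes with a log2 ratio below 0, written 5′ to 3′ on the strand of the gene with the E-box in capitals.
UTP20 (chr12:101280083-101280112, plus strand): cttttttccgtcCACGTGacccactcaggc
PES1 (chr22:30591880-30591909, minus strand): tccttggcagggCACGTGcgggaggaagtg
MRTO4 (chr1:19251807-19251836, plus strand): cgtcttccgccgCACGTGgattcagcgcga
BYSL (chr6:41921515-41921544, plus strand): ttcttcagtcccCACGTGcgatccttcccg
LYAR (chr4:4290068-4290097, minus strand): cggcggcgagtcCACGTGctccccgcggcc
FBL (chr19:39846356-39846385, minus strand): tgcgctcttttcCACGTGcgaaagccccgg
GNL3 (chr3:52686026-52686055, plus strand): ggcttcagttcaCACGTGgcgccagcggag

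Log2 ratios of genes with and without the E-box overlapped. The 16 genes with it had a median log2 ratio of 0.35, with values from -0.19 (NOC3L) to 1.18 (UTP20), and the 14 genes with a window but without it had 0.28, with values from -0.75 to 0.99. In each set, 11 genes were higher in the DAC-treated library, when 62.9% of all genes were. The letters CCGGAAG, a core of ETS factor motifs that was searched on both strands, occurred in 12 of the 30 genes and in 23.3% of the genes that passed the filter.

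A palindrome of the factor NRF1, GCGCA followed by its reverse complement TGCGC, was found in 2 of the 30 genes, DKC1 and NOB1, and in 2.80% of the genes that passed the filter. NOB1, the gene with the lowest ratio held 2 copies, both before the gene start. Matches of any of these motifs are letters in a window and not measured binding sites.

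All 37 promoter windows of the 30 genes had a ratio of observed to expected CpG of 0.6 or more, with a median of 29 CpG dinucleotides per window. Among windows of all genes that passed the filter, 77.3% reached this ratio, with a median of 25 CpG, and among all windows 48.9% did. The window of highest CpG held 49 and that of lowest CpG 10. Methylation was not measured in these libraries.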

How the data were processed

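UMI counts per gene and cell were deposited by the authors as 1 table per condition, without normalization. Per the labels and the study's methods, libraries were prepared using a Chromium single-cell 3′ kit (v3 chemistry), and reads were mapped to hg38 using Cell Ranger. The annotation release and the filter on cells are not given in the sources used here, and the tables held more barcodes (1783 and 1751) than the live cells that the methods state were used. The labels give both samples the text of the DAC protocol, and groups were taken from the treatment label. No column was left unused.

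Scripts ran in Python 3.11.15. Tables were handled in pandas 2.3.3, arrays in numpy 2.4.6, intervals and correlations in scipy 1.17.1, and figures in matplotlib 3.10.9. Genes were matched by name, and 24 repeated names were not used for lists. Gene positions were taken from GENCODE release 44 (hg38). UMIs were summed over all deposited cells and scaled to CPM, and genes with 200 or more UMIs over both libraries were compared. Intervals at the 95% level are exact (Poisson for sums, Clopper-Pearson for shares, conditional binomial for ratios). For single cells, cells were thinned at random without replacement. Doublets were not called, because a doublet of 1 cell line has no marker, and an alternative dropped the 5% of cells highest in UMIs. The computations were tested on simulated data.

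The 36 genes and all lists were chosen with earlier results of these data known. The text names all 36 genes, PCNA, MCM5, 5 regulators, and the 4 highest and 4 lowest further pathway genes with 1000 or more UMIs. Cell type markers and genes that overlap PPAN or NOP2 are named besides. The motifs, the limits of 25% and of 0.1 for rho, and the subset with a mean of 1 UMI were chosen after values had been seen. Cells of 1 library are not replicates, so no test was made and no p-value is given.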

Additional observations from a re-analysis of the deposited data

Results flagged for a closer look

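In 3 measures the PCNA/MCM5-high cells differed from the PCNA/MCM5-low cells in opposite directions in the libraries. The ratio of NPM1 was 0.943 in the mock-treated library but 1.35 in the DAC-treated one. For MYC it was 1.30 in the mock-treated library and 0.696 in the DAC-treated one. For the summed ribosomal protein genes it was 0.898 in the mock-treated library and 1.01 in the DAC-treated one. When cells were ranked by the S-phase list instead, the opposite directions held for NPM1 (0.959 and 1.44) and MYC (1.11 and 0.559) but not for the ribosomal protein genes, which had 0.866 and 0.976. The differences between the libraries were not tested, since each condition had 1 library.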

How the results depend on the processing

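There were 79 alternative values of summary results, and 24 of them moved. The other 55 stayed within the counting interval of the main value, a fixed tolerance for correlations, or 1.5 times a count. Only the median log2 ratio, the ratio of the pooled share, and the PCNA/MCM5-high to PCNA/MCM5-low ratios could be called reversed, and 0 were. Counts, correlations, and measures of spread could not be called so. The median log2 ratio of the 36 genes stayed above 0 in every alternative. It was 0.10 with median-of-ratios scaling (5 genes higher and 2 lower by 1.5-fold or more, against 19.6% and 20.4% of all genes), 0.17 when scaled without mitochondrial and ribosomal protein genes (0.08 for all genes), and 0.41 in cells with 20% or less mitochondrial UMIs (0.23 for all genes, with 32 of 36 genes higher, 12 of them by 1.5-fold or more, and 0 lower by as much, against 63.4%, 29.6%, and 13.6%). By the mean of per-cell CPM, 14 of 36 genes were higher by 1.5-fold or more, against 32.1%, and in cells thinned to 1000 UMIs, where 19 genes passed the filter, 17 were higher and 5 by 1.5-fold or more, against 67.0% and 30.2%. At a limit of 25% in place of 1.5-fold, 18 were higher and 2 lower, against 43.8% and 22.1% of all genes, and at 2-fold 1 and 0, against 13.8% and 6.33%. The ratio of the pooled share was 1.24 of non-mitochondrial UMIs and 1.21 in cells with 8000 or more such UMIs. It was not computed without mitochondrial and ribosomal protein genes, a scaling that lowered the median log2 ratio of the 36 genes from 0.31 to 0.17. The ratio of PCNA/MCM5-high to PCNA/MCM5-low cells was 1.07 without thinning, 1.08 at 3000 UMIs, and 1.14 by the S-phase list in mock-treated cells, and 1.17 at 3000 UMIs, 1.08 with 20% or less mitochondrial UMIs, and 1.31 by the S-phase list in DAC-treated cells. The excess squared coefficient of variation in mock-treated cells was 0.107 at 3000 UMIs, and median correlations between genes without thinning were 0.10 in mock-treated and 0.16 in DAC-treated cells. The cause of these shifts was not tested. Restricting thinned cells to those with no drawn UMI of PCNA or MCM5 and scaling without mitochondrial and ribosomal protein genes were added after seeing the data. No paired analysis was possible because each condition had 1 library. Intervals cover counting error only, and replicates would be needed to judge any difference between conditions.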
